A study of Mus musculus with 42 samples.

Results

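Gzma and Gzmk, a pair of granzyme genes that lie next to each other on mouse chromosome 13, were followed across all bulk RNA-Seq libraries of uterine natural killer cells and across the joined single-cell matrix. They were chosen by name and by position, and they are 2 of the 54353 genes listed in every bulk library. Gzma was among the most abundant messages of these cells, with a mean of 3759 RPKM (reads per kilobase of gene and 1000000 counts) over 34 libraries. Gzmk had a mean of 8.09 RPKM. Of 32 tests on the genes by edgeR, 1 was called, the rise of Gzma with IL-21 at 72 h of culture. Between comparisons 0% to 25.2% of all genes tested were called, and 8.08% were called with IL-21 at 72 h. At an unadjusted p under 0.05 there were 5 of 16 tests of Gzma and 1 of 16 of Gzmk. Over all genes tested, those under it ran from 106 of 3504 to 2257 of 4683 between comparisons.

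The study followed how tissue-resident natural killer (trNK) cells of the mouse uterus develop in pregnancy, and how IL-21 and its signal transducer STAT3 bear on that development. Bulk RNA-Seq covered 17 groups of 2 libraries in 4 experiments. All mice were C57BL/6 females of 8 to 12 weeks. The labels do not say that the libraries of a group came from separate animals, so p-values measure the spread between these libraries, which may be technical.

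The gestation experiment held trNK cells of virgin mice and of mice at gestational days (gd) 6.5 and 8.5, sorted as CD45+ NK1.1+ NKp46+ CD49a+ CXCR6- cells. The subset experiment split gd8.5 trNK cells by the surface proteins CD55 and 4-1BB into trNK-V (low for both), trNK-D (intermediate) and trNK-T (high), names that stand for virginal, differentiating and terminal stages. In the inhibitor experiment, cells were cultured without IL-21, with IL-21 at 20 ng/mL for 3 days, or with the same IL-21 and 1 µM of the STAT3 inhibitor Stattic (iSTAT3). That dose is the labels' own, and the methods give 1 mM. The labels give a culture time only for the libraries with IL-21, and the methods give 3 days for these cultures, untreated cells not being set apart. The time course held libraries at 0, 6, 24 and 72 h with or without IL-21 at 20 ng/mL, in cultures that all carried IL-15. The methods name IL-15 in the medium of all trNK cultures, with IL-21 and Stattic as additions. The methods say that cultured trNK cells came from virgin or gd6.5 mice, and the study describes its IL-21 cultures as trNK-V cells of gd6.5 mice. All groups were labelled WT or C57BL/6. The single-cell library pooled cells of 5 virgin mice and 2 gd8.5 mice, gated as live CD45+ NK1.1+ NKp46+ cells.

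Granzymes are serine proteases that natural killer and cytotoxic T cells store in granules and release towards a target cell, where perforin lets them enter the cytosol. Granzyme A and granzyme K are the tryptases of the family and cut after basic residues, whereas granzyme B cuts after aspartate. Granzyme A is known to act on the SET complex, a group of nucleases and chromatin proteins, and human granzyme K is best known from memory-like CD8 T cells. IL-21 is a cytokine that signals through its receptor and the common gamma chain to STAT3 and raises cytotoxic genes in natural killer cells.

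In the GRCm38 coordinates of the files, Gzma (ENSMUSG00000023132) spans chr13:113093825-113100981 and Gzmk (ENSMUSG00000042385) spans chr13:113171608-113225908. Both are on the minus strand, with 70626 bases between them. The GENCODE annotation gives Gzma 2 coding transcripts, of 5 and 6 exons. It gives Gzmk a coding transcript of 5 exons that begins at base 113180897, a coding transcript of 6 exons whose first exon lies at the far end of the gene, and a transcript marked for nonsense-mediated decay. The long Gzmk transcript runs across Esm1, which is on the other strand and had at most 0.791 RPKM in any library. Strand is not stated for the counting, so reads of the overlapping genes could not be told apart.

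The promoter windows are shown because the study asked whether a STAT3 pathway acts on these cells and the genes are neighbours. Each runs from 250 bases before to 50 bases after the RefSeq start (GRCm38.p6, minus strand) and is written 5′ to 3′. Capitals mark the matches among 5 searched motifs, described after the sequences. The Gzma window is chr13:113100932-113101231 and the Gzmk window is chr13:113180916-113181215.
Gzma: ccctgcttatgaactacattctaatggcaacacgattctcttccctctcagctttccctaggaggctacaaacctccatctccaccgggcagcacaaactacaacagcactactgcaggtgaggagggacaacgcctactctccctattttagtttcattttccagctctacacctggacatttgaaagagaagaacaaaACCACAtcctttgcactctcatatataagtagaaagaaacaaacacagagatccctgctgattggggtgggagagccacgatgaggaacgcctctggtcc
Gzmk: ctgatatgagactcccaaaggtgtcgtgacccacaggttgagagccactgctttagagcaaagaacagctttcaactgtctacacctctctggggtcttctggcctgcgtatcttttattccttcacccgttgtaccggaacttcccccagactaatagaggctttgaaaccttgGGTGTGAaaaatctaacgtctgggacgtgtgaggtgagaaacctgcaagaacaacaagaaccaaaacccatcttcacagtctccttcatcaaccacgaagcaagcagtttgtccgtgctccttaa

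The motifs, searched on both strands, were the STAT motif TTCNNNGAA, a STAT motif with 1 more base in its spacer, the T-box motif GGTGTGA, the RUNX motif TGTGGT and the AP-1 motif TGANTCA. The Gzma window held 1 match, the RUNX letters on the opposite strand at 50 bases before the start. The Gzmk window held 1 match, the T-box letters at 75 bases before the start. Neither window held a STAT or an AP-1 match. Of 32851 RefSeq promoter windows of this length, 8.30% held the first STAT motif, 6.95% the longer form, 3.98% the T-box motif, 16.8% the RUNX motif and 7.81% the AP-1 motif. A match describes letters in a window and not a site.

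Total counts ran from 11862089 to 66468883 per library. The trNK gate genes Ncr1, Klrb1c, Eomes and Itga1 were detected in all 34 libraries, with lowest levels of 46.8, 95.5, 7.19 and 1.64 RPKM. S1pr5, a marker of circulating conventional natural killer (cNK) cells, reached at most 4.87 RPKM and Itga2 at most 5.09 RPKM. Of a list of 6 T cell genes, Cd3e, Cd8a and Cd8b1 reached at most 6.42, 2.11 and 14.8 RPKM, Trac at most 36.1, Cd3d at most 81.5 and Cd3g between 13.7 and 183 RPKM. Virgin replicate 1 stood apart from virgin replicate 2. It held 173 RPKM of Gzmb, the granzyme B gene, against 8742 RPKM, and a summed T cell list of 274 RPKM against 47.1, most of it Cd3g and Cd3d. Its list of genes of type 1 innate lymphoid cells (ILC1s) was at 158 RPKM against 27.9. Virgin replicate 1 was also counted on another gene listing, of 55573 genes, where every other library listed 54446. Of its counts, 99.9% fell in genes listed in all libraries. A list of erythroid genes was at 12.8 RPKM in virgin replicate 1 and 218 RPKM in virgin replicate 2, and at 0.251 and 763 RPKM in the gd8.5 replicates. The 72 h libraries detected between 10724 and 13996 genes, against 13340 to 15679 in the other time course libraries.

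Across the 34 libraries Gzma ran from 270 to 12564 RPKM with a median of 2820 RPKM. It took between 0.0271% and 1.26% of all counts. By level it ranked between place 4 and place 237 among genes. Gzma was present in every library, and its lowest values were in virgin replicate 1 and in the first culture replicate without IL-21.

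Gzmk ran from 0 to 37.6 RPKM, with a median of 4.94 RPKM. It had no count in 3 libraries, the first replicates of trNK-V, trNK-D and the inhibitor culture without IL-21. In those libraries 3 counts, the upper limit that a count of 0 allows, would be 0.140, 0.104 and 0.115 RPKM. Such limits cover counting error only. The partner replicates held 11.7, 23.0 and 11.6 RPKM, so that in each of these groups Gzmk was absent from 1 library and detected in the other.

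**Figure D1:**
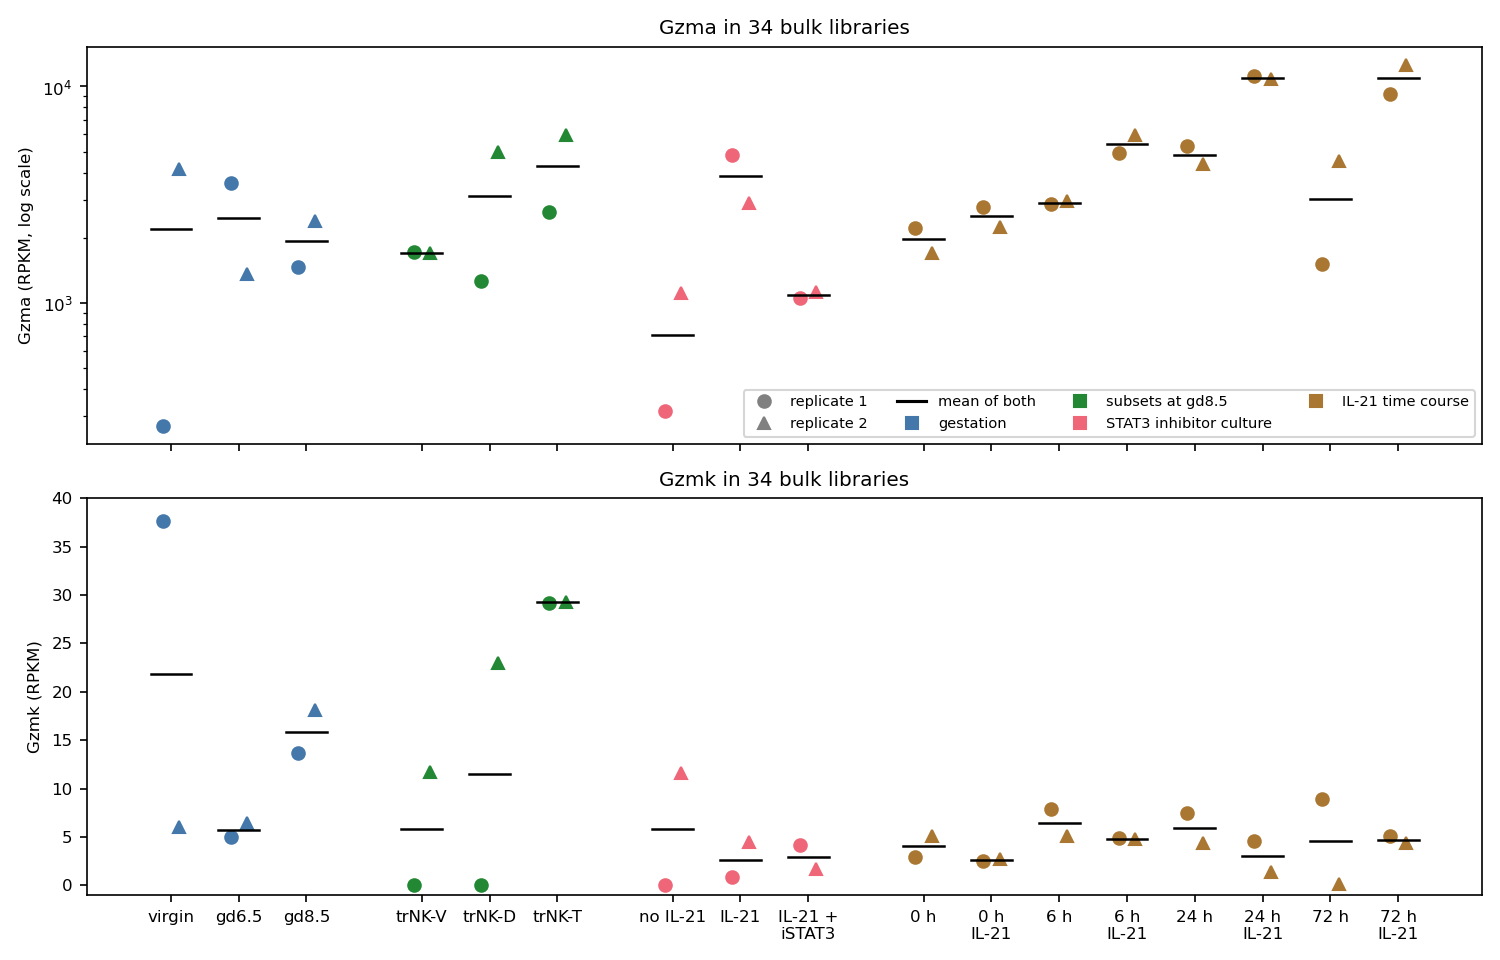
RPKM of Gzma (upper panel, log scale) and Gzmk (lower panel, linear scale) in each of 34 bulk libraries, in 17 groups of 2 coloured by experiment, with circles for replicate 1, triangles for replicate 2 and a line at the mean. The 4 time course libraries with IL-21 at 24 and 72 h sit highest for Gzma, between 9218 and 12564 RPKM, and Gzmk stays below 40 RPKM in every library.

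Ordered by mean level, Gzma was highest with IL-21 at 24 h, at 10971 ± 243 RPKM (SD, n = 2), and at 72 h, at 10891 ± 2366 RPKM. These groups overlapped each other and lay above all others. The lowest groups were the inhibitor cultures, at 1088 ± 47.9 RPKM with IL-21 and iSTAT3 and 712 ± 559 RPKM without IL-21. Of the 16 neighbouring pairs in the order of 17 groups, 13 overlapped and 3 did not. The experiments were separate sets of libraries, so an order across them is a description.

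Gzmk was highest in trNK-T cells, at 29.2 ± 0.122 RPKM, followed by virgin cells at 21.8 ± 22.4 RPKM and gd8.5 cells at 15.9 ± 3.09 RPKM. The lowest mean was 2.62 ± 0.157 RPKM, in the 0 h libraries with IL-21. Of its 16 neighbouring pairs, 15 overlapped.

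In the gestation experiment, which asks how trNK cells change as the uterus decidualizes, Gzma spread more within groups than between them. It stood at 270 and 4136 RPKM in virgin replicates 1 and 2, at 3579 and 1359 RPKM at gd6.5, and at 1464 and 2393 RPKM at gd8.5. The gd6.5 and gd8.5 values lay between the virgin values.

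Gzma did not pass the test between any of these groups. Its log2 fold change was 0.08 at gd6.5 against virgin (SE 1.08, adjusted p = 0.966, edgeR's quasi-likelihood test with Benjamini-Hochberg adjustment), with a 95% interval from -2.52 to 2.69. At gd8.5 against virgin it was -0.26 (95% interval from -2.87 to 2.35, edgeR adjusted p = 0.927), and at gd8.5 against gd6.5 it was -0.34 (95% interval from -2.95 to 2.27, edgeR adjusted p = 0.876). Among 4504 genes tested, 6.22% were called at gd6.5 against virgin, 0.377% at gd8.5 against virgin and 0% at gd8.5 against gd6.5. A call required an adjusted p below 0.05 and a fold above 2. In that last comparison edgeR called no gene, 1062 genes had an unadjusted p under 0.05, and DESeq2 called 221.

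The virgin libraries decided the Gzma values. Without virgin replicate 2 the difference at gd6.5 was 3.18 on the log2 scale (adjusted p = 0.00912, edgeR), and without virgin replicate 1 it was -0.81 (adjusted p = 0.288, edgeR). At gd8.5 against virgin it was 2.83 (adjusted p = 0.0198, edgeR) without virgin replicate 2. The T cell list that differed between the virgin libraries was summed at 36.7 to 60.8 RPKM at gd6.5 and at 158 to 170 RPKM at gd8.5. The ILC1 list was at 28.6 to 46.3 and 54.9 to 72.4 RPKM, and the erythroid list at 0.237 to 0.3005 and 0.251 to 763 RPKM. The trNK gate genes were at 1222 to 1241 RPKM in virgin cells, 710 to 741 RPKM at gd6.5 and 922 to 933 RPKM at gd8.5. The part of these lists, and of the different gene listing of virgin replicate 1, in the Gzma values was not tested.

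Gzmk stood at 37.6 and 5.98 RPKM in the virgin replicates, at 4.99 and 6.42 RPKM at gd6.5 and at 13.7 and 18.1 RPKM at gd8.5. Virgin replicate 1, the library lowest in Gzma, was thus the library highest in Gzmk, and its Gzma level was 7.17 times its Gzmk level, against 692 times in virgin replicate 2. Both gd8.5 libraries lay above both gd6.5 libraries, as 32.9% of all genes tested did.

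The log2 fold change of Gzmk at gd8.5 against gd6.5 was 1.49 (SE 0.78, adjusted p = 0.301, edgeR), with a 95% interval from -0.39 to 3.37. With only the 4 libraries of these groups in the fit it was 1.501 (adjusted p = 0.0177, edgeR), and the share of all genes called in that fit was not obtained. At gd6.5 against virgin it was -2.02 (SE 0.79, adjusted p = 0.137, edgeR), and at gd8.5 against virgin -0.53 (adjusted p = 0.761, edgeR). DESeq2 gave the gd6.5 difference of -2.02 an adjusted p of 0.0302, and it called 462 of all genes there. Without virgin replicate 2 the gd6.5 difference was -2.75 (adjusted p = 0.00257, edgeR) and that at gd8.5 -1.25 (adjusted p = 0.0448, edgeR). Without virgin replicate 1 they were -0.13 and 1.35 (adjusted p = 0.82 and 0.172, edgeR).

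The subset experiment asks how the genes stand in trNK-V, trNK-D and trNK-T cells of a common gestational day. Gzma held 1712 and 1694 RPKM in the trNK-V replicates, 1261 and 4996 RPKM in trNK-D and 2630 and 5959 RPKM in trNK-T. Both trNK-T libraries were above both trNK-V libraries, as were 36.5% of 4683 genes tested. The trNK-D libraries lay on both sides of trNK-V.

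The Gzma log2 fold change of trNK-T against trNK-V was 1.33 (SE 0.64, adjusted p = 0.143, edgeR), with a 95% interval from -0.19 to 2.86, and did not pass the test. In this comparison 21.2% of genes were called. With only the libraries of trNK-T and trNK-V in the fit the value was 1.33 and the adjusted p 0.0434 (edgeR). The share of all genes called in that fit was not obtained. Without trNK-T replicate 2 it was 0.62 (adjusted p = 0.584, edgeR), and without trNK-T replicate 1 it was 1.79 (adjusted p = 0.111, edgeR). The log2 fold change was 0.90 for trNK-D against trNK-V (adjusted p = 0.448, edgeR) and 0.44 for trNK-T against trNK-D (adjusted p = 0.722, edgeR). Without trNK-D replicate 2 the first of these was -0.46, and without trNK-T replicate 2 the second was -0.27. Of all genes, 0.32% were called for trNK-D against trNK-V and 1.75% for trNK-T against trNK-D.

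Gzmk held 0 and 11.7 RPKM in trNK-V, 0 and 23.0 RPKM in trNK-D, and 29.1 and 29.3 RPKM in trNK-T. Both trNK-T libraries were above the libraries of either other subset, as 36.5% of genes were against trNK-V and 29.4% against trNK-D. The fitted log2 fold change of trNK-T against trNK-V was 2.32 (SE 2.25, adjusted p = 0.442, edgeR), with a 95% interval from -3.04 to 7.68. Against trNK-D it was 1.33 (SE 2.16, adjusted p = 0.754, edgeR), and for trNK-D against trNK-V it was 0.99 (SE 2.18, adjusted p = 0.821, edgeR). Without trNK-D replicate 1, which held no Gzmk count, the trNK-T against trNK-D value was 0.34 (adjusted p = 0.969, edgeR). Without trNK-D replicate 2 the trNK-D against trNK-V value was -9.98, a fitted value against libraries at 0 that is no bound.

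Lists of marker genes moved across the subsets. A cNK list of 5 genes, most of whose level came from Klra4 and Klra8, was summed at 1491 to 2416 RPKM in trNK-V, 916 to 927 RPKM in trNK-D and 308 to 357 RPKM in trNK-T. The T cell list was lower in the same order, at 165 to 176 RPKM in trNK-V, 58.8 to 88.8 RPKM in trNK-D and 28.0 to 31.9 RPKM in trNK-T. The ILC1 list was at 118 to 184 RPKM in trNK-V, 18.8 to 35.7 RPKM in trNK-D and 3.61 to 7.72 RPKM in trNK-T. A macrophage list was at 4.45 to 7.70, 13.4 to 18.1 and 0.546 to 2.02 RPKM in the same order. Klra4 was also among the leading genes of a single-cell cluster named trNK-like below, so the cNK list is not particular to cNK cells. S1pr5 stayed at or below 4.87 RPKM in every library. Of the genes of the ILC1 list, Ltb reached at most 568 RPKM in any library, Cxcr6 106, Tnfsf10 21.9 and Il7r 5.96 RPKM. The highest sums of that list therefore came mostly from Ltb. The part of these lists in the Gzma and Gzmk values was not tested, and in bulk libraries fewer cells of a type and less RNA per cell cannot be told apart.

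Other genes of the granule list rose where Gzma did not pass the test. The list held 26 genes of granule proteases, their inhibitors and release factors, of which 19 were tested in the subsets. In trNK-T against trNK-V 8 rose, 0 fell and 11 were not called, where 8.07% of all genes tested were called higher and 13.1% lower, and the list's median was 0.58 on the log2 scale, where that of all genes tested was -0.02. Those that rose were Gzmb, by 2.70 on the log2 scale (adjusted p = 0.00433, edgeR), Gzmc, by 4.16 (adjusted p = 0.00103, edgeR), Gzmd, Gzme, Gzmf, Gzmg, the perforin gene Prf1, by 1.896 (adjusted p = 0.0036, edgeR), and Serpinb6a, a serine protease inhibitor, by 1.10 (adjusted p = 0.0115, edgeR). Gzmd to Gzmg are near-identical copies, so their reads may have been split between them. Gzmb, Gzmc, Gzme and Prf1 were called under all 12 alternatives. Without trNK-T replicate 2 the Gzmd and Gzmf calls ended (adjusted p = 0.0651 and 0.0511, edgeR), without trNK-T replicate 1 that of Serpinb6a (adjusted p = 0.0625, edgeR), and without either trNK-T library that of Gzmg (adjusted p from 0.0847 to 0.133, edgeR). In trNK-D against trNK-V Gzmc and Gzme rose, by 2.89 and 2.60 on the log2 scale (adjusted p = 0.0248 and 0.0218, edgeR), where 0.256% of all genes were called higher. Both calls ended without trNK-D replicate 2 and without either trNK-V library (adjusted p from 0.0762 to 0.104 for Gzme and from 0.0798 to 0.182 for Gzmc, edgeR), and with filterByExpr, edgeR's own filter on low counts.

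In the gestation experiment, 20 granule genes were tested. The lysosomal membrane gene Lamp1 was the 1 member called, lower at gd6.5 and at gd8.5 than in virgin cells, where 3% and 0.355% of all genes were called lower. It stood at 98.5 and 94.8 RPKM in the virgin libraries, 11.8 and 4.24 RPKM at gd6.5 and 8.33 and 7.47 RPKM at gd8.5. The call at gd6.5 ended without either gd6.5 library (adjusted p = 0.062 and 0.109, edgeR) and that at gd8.5 without either gd8.5 library (adjusted p = 0.376 and 0.392, edgeR). Both also ended with filterByExpr and with the replicate block (adjusted p = 0.0611 and 0.0839, edgeR). The median of the list was -0.09 at gd6.5 against virgin and 0.21 at gd8.5, against -0.01 and -0.01 over all genes.

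The inhibitor experiment asks what IL-21 does and what remains of it with the STAT3 inhibitor added. No group held the inhibitor without IL-21, so an effect of the inhibitor itself cannot be told apart. Gzma held 317 and 1107 RPKM without IL-21, 4840 and 2880 RPKM with IL-21, and 1054 and 1122 RPKM with IL-21 and iSTAT3. Both IL-21 libraries were above both libraries without IL-21, as were 10.7% of 4159 genes tested. Both iSTAT3 libraries were below both IL-21 libraries, as were 28.9% of genes, and they lay within or just above the range without IL-21.

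The Gzma difference with IL-21 was 2.63 on the log2 scale (SE 0.60, adjusted p = 0.125, edgeR), a 6.199-fold difference with a 95% interval on the log2 scale from 1.25 to 4.02. The unadjusted p was 0.00244, and 0.289% of genes were called in this comparison. DESeq2 gave 2.67 with an adjusted p of 2.4e-04, and it called 162 of all genes. The values without 1 library ran from 2.098 to 3.85.

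With iSTAT3 added to IL-21 the Gzma difference was -1.74 (SE 0.58, adjusted p = 0.161, edgeR), with a 95% interval from -3.08 to -0.40, and DESeq2 gave -1.75 with an adjusted p of 0.0244. In this comparison edgeR called 2.96% of 4159 genes, and DESeq2 called 443. Against no IL-21 the libraries with IL-21 and iSTAT3 differed by 0.89 (SE 0.57, adjusted p = 0.405, edgeR), with a 95% interval from -0.42 to 2.21, where 4.74% of genes were called. Without the second library that lacked IL-21 this value was 2.13 (adjusted p = 0.113, edgeR), and without the first it was 0.34 (adjusted p = 0.824, edgeR). All 3 comparisons share libraries, so their values are not independent.

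Gzmk held 0 and 11.6 RPKM without IL-21, 0.827 and 4.49 RPKM with IL-21, and 4.19 and 1.69 RPKM with IL-21 and iSTAT3. The groups overlapped in all 3 comparisons. The log2 fold change with IL-21 was -0.98 (SE 1.73, adjusted p = 0.945, edgeR), with a 95% interval from -4.99 to 3.04. It was 0.28 for iSTAT3 added to IL-21 (adjusted p = 0.957, edgeR) and -0.70 against no IL-21 (adjusted p = 0.870, edgeR). Without the second replicate without IL-21, the first and the last turned positive. Gzmk enters this fit although it did not pass the expression filter.

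The same cultures differed in their gate genes. The summed trNK gate genes were at 966 to 1099 RPKM without IL-21, 313 to 367 RPKM with IL-21 and 228 to 234 RPKM with iSTAT3. The ILC1 list was at 201 to 214, 64.8 to 109 and 31.1 to 63.5 RPKM in the same order. Their part in the Gzma values was not tested.

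Of 19 granule genes tested in the inhibitor experiment, Gzmb and Prf1 rose with IL-21, by 3.70 and 4.08 on the log2 scale (adjusted p = 0.0137 and 0.014, edgeR), and 0 fell, where 0.289% of all genes were called higher. Both calls ended with filterByExpr (adjusted p = 0.0896 for each, edgeR), with the replicate block (adjusted p = 0.104 and 0.109, edgeR) and without replicate 1 of the cells without IL-21 (adjusted p = 0.125 and 0.145, edgeR), and that of Prf1 without replicate 2 of them (adjusted p = 0.0772, edgeR). The list's median was 0.62 against -0.02 over all genes. With iSTAT3 added, Prf1 fell by 2.01 (adjusted p = 0.0453, edgeR) and Ctsc, the protease that activates granzymes, rose by 1.86 (adjusted p = 0.0473, edgeR). Gzmb, Ctsc, Prf1 and Serpinb6a were higher with IL-21 and iSTAT3 than without IL-21, by 2.72, 1.91, 2.07 and 1.68 (adjusted p = 0.00768, 0.0342, 0.0309 and 0.0348, edgeR). Of all genes, 1.8% were called higher and 1.15% lower with iSTAT3 added to IL-21, and 2.93% were called higher against no IL-21. The calls of Ctsc and Prf1 with iSTAT3 added ended without any 1 of the 4 libraries compared (adjusted p from 0.0608 to 0.227, edgeR), as did those of Ctsc, Prf1 and Serpinb6a against no IL-21 (adjusted p from 0.0753 to 0.221, edgeR), and all 5 ended with filterByExpr and the replicate block. That of Gzmb against no IL-21 ended with filterByExpr and without either iSTAT3 library or replicate 1 of the cells without IL-21.

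In the time course Gzma rose with IL-21 at 72 h. It held 1518 and 4500 RPKM at 72 h without IL-21 and 9218 and 12564 RPKM with it. Both IL-21 libraries were above both others, as 21.6% of 3504 genes tested were. The difference was 1.77 on the log2 scale (SE 0.48, adjusted p = 0.0405, edgeR's quasi-likelihood test), a 3.41-fold rise with a 95% interval on the log2 scale from 0.72 to 2.81. Of all genes, 8.08% were called and 6.56% were called higher.

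The call at 72 h ended without the library with the highest Gzma level, with filterByExpr and with only the 72 h libraries in the fit. Without IL-21 replicate 2 at 72 h the difference was 1.24 (adjusted p = 0.124, edgeR), and the values without 1 library ran from 1.22 to 2.98. With the filter of edgeR's filterByExpr it was 1.75 (adjusted p = 0.0606), and with only the 4 libraries of 72 h in the fit 1.83 (adjusted p = 0.578, edgeR). The summed T cell list was at 31.2 to 116 RPKM without IL-21 at 72 h and 170 to 183 RPKM with it, the cNK list at 4938 to 5818 and 4356 to 5703 RPKM, and the trNK gate genes at 1524 to 1581 and 1058 to 1370 RPKM. Their part in the result was not tested.

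At 0, 6 and 24 h Gzma was also higher in the IL-21 libraries but did not pass the test. The labels give the first of these 0 h of culture, so that difference is a baseline and was not read as a response to IL-21. At 0 h it held 2224 and 1699 RPKM without IL-21 and 2782 and 2244 RPKM with it. At 6 h it held 2858 and 2942 RPKM without IL-21 and 4930 and 5958 RPKM with it. At 24 h it held 5299 and 4360 RPKM without IL-21 and 11143 and 10799 RPKM with it.

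The groups did not overlap at any of these times. The share of genes with both IL-21 libraries above both others was 13.4% at 0 h, 30.3% at 6 h and 39.8% at 24 h. The log2 fold changes of Gzma were 0.45 at 0 h (SE 0.46, adjusted p = 1.0, edgeR), 0.87 at 6 h (SE 0.46, adjusted p = 0.518, edgeR) and 1.08 at 24 h (SE 0.47, adjusted p = 0.308, edgeR). Their 95% intervals ran from -0.57 to 1.46, from -0.15 to 1.89 and from 0.06 to 2.11. With only the 4 libraries of 24 h in the fit the value was 1.08 with an adjusted p of 1.3e-05 (edgeR). How many of all genes that fit called was not obtained, and the shares that follow are those of the main fit. Of all genes, 1.97% were called at 6 h and 1.66% at 24 h. At 0 h 0% were called, by edgeR and by DESeq2, and 110 had an unadjusted p under 0.05.

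The IL-21 difference of Gzma at 72 h exceeded that at 6 h by 0.90 on the log2 scale (SE 0.65, adjusted p = 0.553, edgeR), with a 95% interval from -0.54 to 2.33. This test of the difference did not pass, where 4.25% of genes did. Without the second 72 h library that lacked IL-21 the difference was 2.09 (adjusted p = 0.0174, edgeR), and the values without 1 library ran from 0.33 to 2.09.

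Without IL-21 Gzma stood at 6 h above its 0 h values in both libraries, as 23.3% of genes did, with a log2 fold change of 0.51 (SE 0.46, adjusted p = 0.999, edgeR). Of all genes, 0% were called between these times by edgeR, 106 had an unadjusted p under 0.05, and DESeq2 called 6. At 72 h the libraries lay on both sides of the 0 h values, with a log2 fold change of 1.10 (SE 0.47, adjusted p = 0.0962, edgeR) and with 25.2% of genes called. DESeq2 gave 1.13 with an adjusted p of 0.0391, and it called 1033 of all genes. Without the second 72 h library the value was -0.11 (adjusted p = 0.839, edgeR), and without the first it was 1.63 (adjusted p = 0.0025, edgeR). In this comparison the median of all genes moved by 0.42 between scaling by total counts and TMM scaling.

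**Figure D2:**
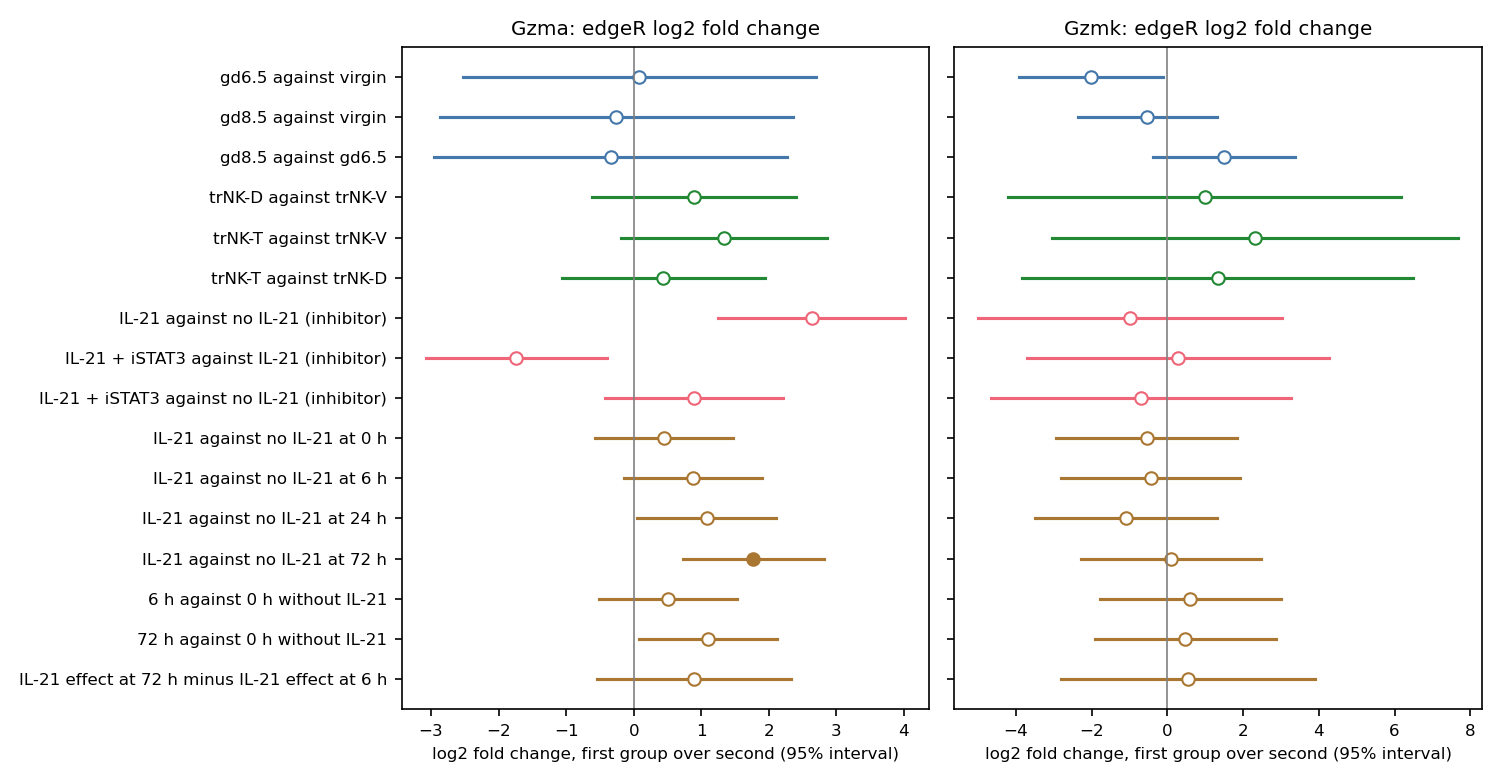
edgeR log2 fold changes of Gzma (left) and Gzmk (right) in 16 comparisons, first group over second, with points for the estimate, filled where called, and lines for the 95% interval, coloured by experiment. The 1 filled point is Gzma with IL-21 at 72 h, at 1.77, and the Gzmk intervals of the subset and inhibitor experiments are the widest.

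Gzmk stayed between 0.173 and 8.92 RPKM in the 16 time course libraries. At 0 h it held 2.96 and 5.10 RPKM without IL-21 and 2.51 and 2.73 RPKM with it. At 6 h it held 7.86 and 5.09 RPKM and, with IL-21, 4.90 and 4.77 RPKM. At these times both IL-21 libraries were below both others, as 19.7% and 28.7% of genes were.

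At 24 h Gzmk held 7.50 and 4.42 RPKM without IL-21 and 4.59 and 1.41 RPKM with it, and at 72 h 8.92 and 0.173 RPKM without IL-21 and 5.08 and 4.36 RPKM with it. These groups overlapped. The log2 fold changes with IL-21 were -0.55 at 0 h, -0.45 at 6 h, -1.10 at 24 h and 0.10 at 72 h (edgeR adjusted p = 1.0, 0.965, 0.753 and 0.973). The second 72 h library without IL-21 held 10 Gzmk counts and decided the last value, which was -0.83 without it (adjusted p = 0.496, edgeR) and 4.65 without its partner (adjusted p = 0.00375, edgeR). Without IL-21 the log2 fold changes against 0 h were 0.61 at 6 h (adjusted p = 0.999, edgeR) and 0.48 at 72 h (adjusted p = 0.772, edgeR). The value at 72 h ran from -4.10 to 1.40 without 1 library, and limma-voom gave -1.34. The Gzmk difference with IL-21 at 72 h minus that at 6 h was 0.54 (SE 1.53, adjusted p = 0.923, edgeR), and 5.08 without the first 72 h library that lacked IL-21 (adjusted p = 0.00615, edgeR).

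Of 15 granule genes tested in the time course, 0 were called at 0 h by edgeR and by DESeq2, with 0 at an unadjusted p under 0.05, Gzmb and Prf1 rose with IL-21 at 6 h and 24 h, and 5 rose at 72 h. Gzmb rose by 1.85, 1.94 and 1.94 on the log2 scale at 6, 24 and 72 h (adjusted p = 0.0235, 0.021 and 0.00726, edgeR), and Prf1 by 2.36 and 2.11 at 6 and 24 h (adjusted p = 0.0205 and 0.0348, edgeR). At 72 h Gzmc rose by 1.77 (adjusted p = 0.00203, edgeR) and Ctsc by 1.55 (adjusted p = 0.0211, edgeR). Gzmd and Gzme also rose at 72 h, from close to 0 RPKM and from 0 RPKM without IL-21 to between 122 and 132 RPKM and between 50.8 and 134 RPKM. The calls of Gzmb and Prf1 at 6 h and 24 h ended without any 1 of the 4 libraries compared (adjusted p from 0.0966 to 0.251 at 6 h and from 0.156 to 0.285 at 24 h, edgeR), with filterByExpr and with total-count scaling, and that of Prf1 at 24 h also with the replicate block. At 72 h only that of Ctsc ended when 1 library was left out, IL-21 replicate 1 (adjusted p = 0.118, edgeR), and all 5 ended with only the 4 libraries of 72 h in the fit (adjusted p from 0.0525 to 0.578, edgeR). The list's medians at 0, 6, 24 and 72 h were -0.09, -0.14, 0.35 and 1.31, against 0.00, -0.02, 0.01 and 0.05 over all genes. The shares of all genes called higher were 0.599% at 6 h, 0.342% at 24 h and 6.56% at 72 h.

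Marker lists, among them the gate genes of the sorted cells themselves, differed with IL-21 at 6 h and 24 h as well. At 6 h the trNK gate genes were at 1253 to 1315 RPKM without IL-21 and 577 to 617 RPKM with it, and the ILC1 list at 127 to 173 and 67.3 to 74.9 RPKM. At 24 h the gate genes were at 1396 to 1503 and 866 to 898 RPKM, the ILC1 list at 187 to 198 and 67.2 to 74.1 RPKM, and the cNK list at 3213 to 3402 and 1859 to 2214 RPKM. Their part in the Gzma and granule gene values was not tested.

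Without IL-21, 5 granule genes fell between 0 and 72 h, among them Gzmb, which fell by 1.99 (adjusted p = 0.0022, edgeR), and Serpinb9, an inhibitor of granzyme B, which fell by 2.73 (adjusted p = 0.00463, edgeR). The others were Gzmd, Gzme and Gzmf. The Gzmf call ended without 72 h replicate 1 and without either 0 h library (adjusted p from 0.0574 to 0.0648, edgeR), and those of Serpinb9 and Gzmd with only the groups compared (adjusted p = 0.116 and 0.0549, edgeR). Of all genes 14% were called lower in this comparison. From 0 to 72 h without IL-21 the cNK list stood at 2633 to 2824 and then 4938 to 5818 RPKM, the ILC1 list at 112 to 129 and 214 to 536 RPKM, the trNK gate genes at 1182 to 1217 and 1524 to 1581 RPKM, and the T cell list at 127 to 137 and 31.2 to 116 RPKM. Their part in these values was not tested. Between 0 and 6 h 0 were called by edgeR and by DESeq2, and 1 had an unadjusted p under 0.05. In the difference between the IL-21 effects at 72 and 6 h 4 were called higher, namely Gzmc, Gzmd, Gzme and Cst7, a cysteine protease inhibitor, at 2.14 for Gzmc and 1.17 for Cst7 (adjusted p = 0.00775 and 0.0217, edgeR). The Cst7 call ended without 6 h replicate 2 and without either 6 h IL-21 library (adjusted p from 0.0739 to 0.0926, edgeR), with filterByExpr, without a filter and with total-count scaling, and those of Cst7 and Gzmd ended with only the groups compared. Of all genes 3.68% were called higher in this difference.

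Per kilobase, Gzma was above Gzmb in 12 of 34 libraries. At 72 h with IL-21 the Gzma level was 2.13 and 6.68 times the Gzmb level, and at 24 h with IL-21 1.12 and 1.27 times. Without IL-21 it was 1.54 and 8.71 times at 72 h and 2.58 and 1.80 times at 24 h. In trNK-T cells it was 0.333 and 0.455 times, and in the inhibitor culture with IL-21 0.239 and 0.106 times. The Gzmb gene held 20264 and 27117 RPKM in those last libraries.

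The SET complex list held 6 genes, of which 4 or 5 were tested in an experiment. In trNK-T against trNK-V the endonuclease gene Apex1 and the nuclease gene Nme1 rose, by 1.23 and 1.12 on the log2 scale (adjusted p = 0.0291 and 0.00614, edgeR), with a list median of 0.84 against -0.02 over all genes. These are 2 of 5 members tested, where 8.07% of all genes were called higher and 21.2% were called. Between 0 and 72 h without IL-21, Nme1 fell by 1.42 and Hmgb2, which encodes a chromatin protein, by 1.16 (adjusted p = 7.1e-05 and 5.5e-04, edgeR), 2 of 5 members where 14% of all genes were called lower. In the other 14 comparisons edgeR called 0 members and DESeq2 called 1, in trNK-T against trNK-D, while between 0 and 3 members a comparison had an unadjusted p under 0.05. With IL-21 at 72 h the median of the list was -0.10.

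In the single-cell data Gzma was highest in cNK-like cells. The files labelled virgin and gd8.5 list the same 15175 cells and hold different genes, with Gzmk in the first and Gzma in the second. The joined matrix is therefore a single pooled sample with no map from cells to mice, and no comparison of virgin with gd8.5 cells and no test was possible. After limits of 200 to 2500 genes per cell and a mitochondrial share below 10%, 8907 cells remained, with a median of 2576 UMIs (unique molecules counted). Gzma, Gzmk and the granule genes were left out of the clustering. Of 18 clusters, 4 with 1897 cells stayed unnamed.

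The cNK-like cluster of 1017 cells, led by S1pr5, Serpinb9b and Mcam, held 15260 Gzma CPM (UMIs per 1000000 UMIs of the class, 95% Poisson interval from 15085 to 15438), and 98.3% of its cells held a Gzma UMI. The 3921 trNK-like cells, in 6 clusters, held 2038 CPM (95% interval from 2014 to 2062), and 50.4% of the cells held a UMI. The median depth was 1702 UMIs in cNK-like cells and 3129 UMIs in trNK-like cells. Thinned to 1000 UMIs a cell, the shares were 97.8% and 35.2%, after leaving out 43 and 328 shallower cells. The intervals cover counting error only.

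Gzma UMIs were also found in cells that should lack the gene. B-like cells held 639 CPM, with a UMI in 32.4% of 299 cells (23.2% thinned) at a median depth of 1824 UMIs. Macrophage-like cells held 380 and stromal-like cells 302 CPM, monocyte or neutrophil-like cells 794 CPM, erythrocyte-like cells 1414 CPM, and the unnamed cluster led by Cd209a and Xcr1, dendritic cell genes, 1250 CPM. T-like cells, at 851 CPM and a share of 27.8% (16.9% thinned), were at or below the B-like share. The pooled trNK-like share was above the B-like share before and after thinning. Thinned shares were 24.3% in the trNK-like cluster led by Rasd1 and Hspb1, 26.9% in the one led by interferon response genes and 28.5% in the one led by Cox6a2 and Ier5l, near the 27.5% of the cluster led by Cd209a, and a level above that background was not read from them.

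Gzma CPM differed between the trNK-like clusters. The values of those led by Cox6a2 and Ier5l, by Rasd1 and Hspb1 and by interferon response genes were not read above background. The cluster led by Tnfsf4, Gzmc and Tnfrsf9, which encodes 4-1BB, held 2478 CPM (95% interval from 2436 to 2521), and the dividing cluster led by Pclaf and Ccna2 held 2348 (95% interval from 2287 to 2410). Clusters led by Cox6a2 and Ier5l and by Rasd1 and Hspb1 held 1665 and 997 CPM. The cluster led by interferon response genes held 1596 CPM, of which 1 cell held 36.4%, and 1031 CPM without that cell, with a median of 0 Gzma UMIs a cell. The cluster led by noncoding RNAs, at a median of 1144 UMIs a cell, held 2239 CPM. All were below the cNK-like cluster, and the 997 CPM was below the values of the erythrocyte-like cells and of the cluster led by Cd209a. The unnamed cluster led by Mt2, Scin and Ctsg, of 851 cells, held 1204 CPM (95% interval from 1173 to 1236), with a UMI in 71.1% of its cells and in 44.9% after thinning. Its CPM too was below the values of the erythrocyte-like cells and of the cluster led by Cd209a. It held 911 CPM of Tnfrsf9, 471 of Cd55 and 433 of Eomes, against 1749, 444 and 349 in the cluster led by Tnfsf4. Its Ncr1 and Klrb1c, at 140 and 82.2 CPM, did not reach 2 times the B-like level, so the trNK-like values leave it out.

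**Figure D3:**
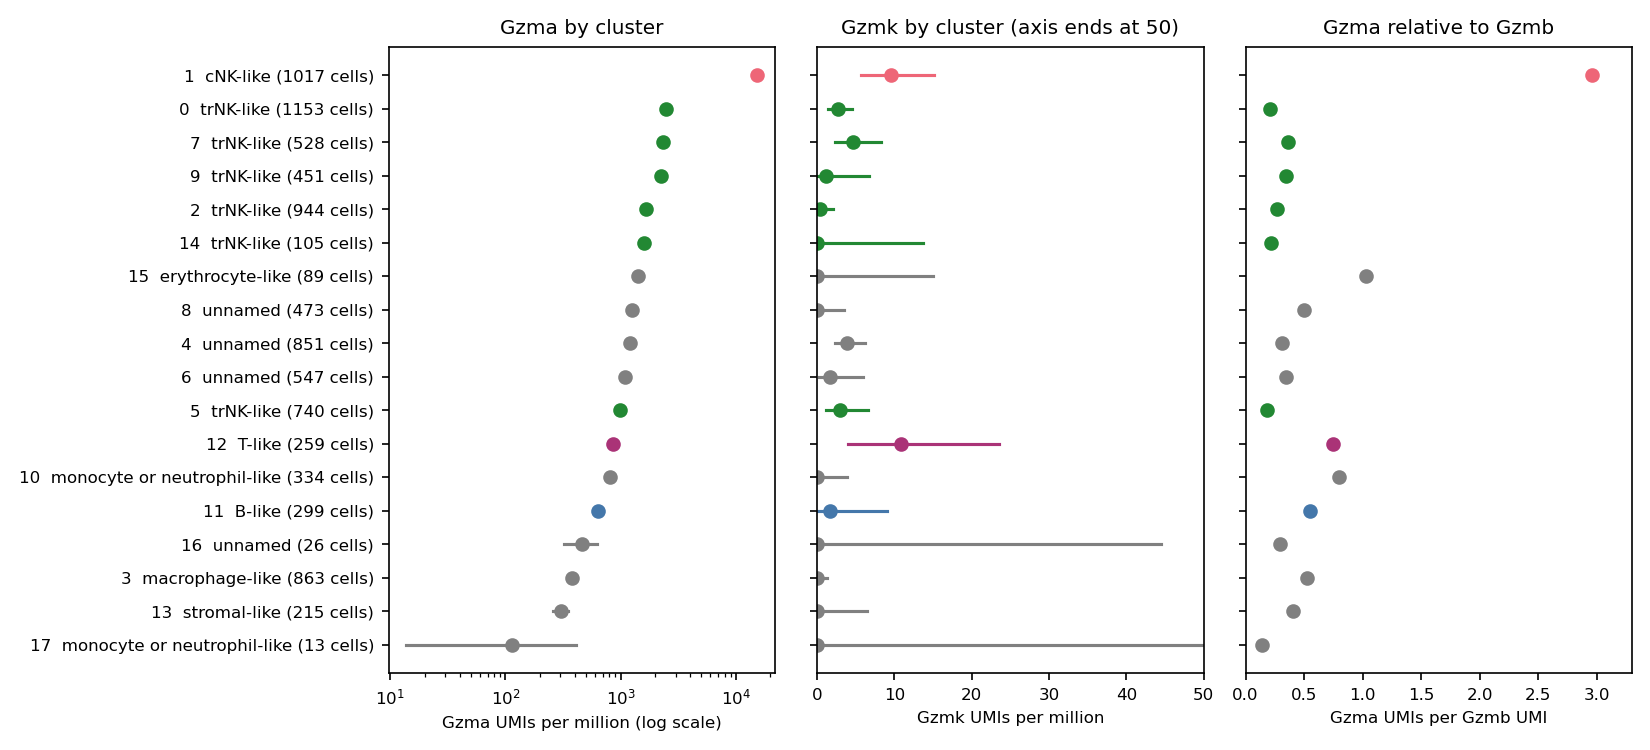
Gzma (left, log scale) and Gzmk (middle) as CPM in 18 single-cell clusters, with lines for 95% Poisson intervals, and Gzma UMIs per Gzmb UMI (right), with trNK-like, cNK-like, T-like and B-like clusters in colour and the rest in grey. The cNK-like cluster stands highest for Gzma, at 15260, and for the ratio, at 2.96.

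Gzmk was sparse. All 15175 cells before filtering held 269 Gzmk UMIs in 203 cells, with at most 6 in a cell, or 3.22 CPM. The limits on cells left out most of these UMIs. The kept cells held 78 Gzmk UMIs in 59 cells, or 2.78 CPM, of which 44 cells held 1 UMI and none more than 4. Among these 59 cells, 53 (89.8%) also held a Gzma UMI, against 51.6% of all kept cells, a description in which depth was not matched. The cNK-like cells held 18 UMIs, or 9.53 CPM (95% interval from 5.65 to 15.1), and the trNK-like cells 33 UMIs, or 2.45 CPM (95% interval from 1.68 to 3.44).

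T-like cells held 6 Gzmk UMIs in 5 of 259 cells, or 10.8 CPM (95% interval from 3.97 to 23.5). B-like cells held 1 UMI, or 1.62 CPM (95% interval from 0.04 to 9.03), which overlaps the intervals of the trNK-like, cNK-like and T-like cells. Macrophage-like cells held 0 Gzmk UMIs in 863 cells, which allows a share of up to 0.348% of cells with a UMI and a level of up to 1.09 CPM, below the intervals of the trNK-like, cNK-like and T-like cells. The unnamed cluster led by Mt2, Scin and Ctsg held 18 UMIs in 851 cells, or 3.88 CPM.

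The granule genes went both ways between the natural killer classes. The ratio of cNK-like to trNK-like levels was 7.49 for Gzma and 3.90 for Gzmk, with the unnamed cluster led by Mt2, Scin and Ctsg in neither class. In neither class was Gzmk above B-like cells beyond counting error, so its ratio was not read as exact. With the limits read on UMIs, which is how the methods word them, it was 11.2 for Gzma and 2.11 for Gzmk, from 6 Gzmk UMIs in each class. Among 24 other granule genes in the matrix the median ratio was 1.12, 13 were higher in cNK-like cells, and 1, Serpinb9b, a gene of the granzyme B inhibitor family that led the cNK-like cluster, had a ratio above that of Gzma, at 33.1. The trNK-like value of Serpinb9b, 9.19 CPM, was not above that of B-like cells beyond counting error, so its ratio was not read as exact. Gzmb was at 8296 CPM in trNK-like cells and 5151 in cNK-like cells, where B-like cells held 1162 CPM. Gzmc was at 4708 CPM in trNK-like cells, and its 463 CPM in cNK-like cells was below the 551 CPM of B-like cells and was not read as a level. Prf1 was at 973 and 1883 CPM, against 190 CPM in B-like cells, and Gzmm, the granzyme M gene, at 4.82 and 19.1 CPM, against 1.62 CPM. The lower limit of the cNK-like value was not above the upper limit of the B-like value for 14 of the 24 genes, Gzmc to Gzmg among them, and that of the trNK-like value for 9. Of the 8 genes above it in both classes 6 were higher in cNK-like cells, at a median ratio of 1.93.

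The cNK-like cells held 2.96 Gzma UMIs per Gzmb UMI and the trNK-like cells 0.246. B-like cells held 0.550, T-like cells 0.747 and macrophage-like cells 0.528, between the natural killer classes.

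**Figure D4:**
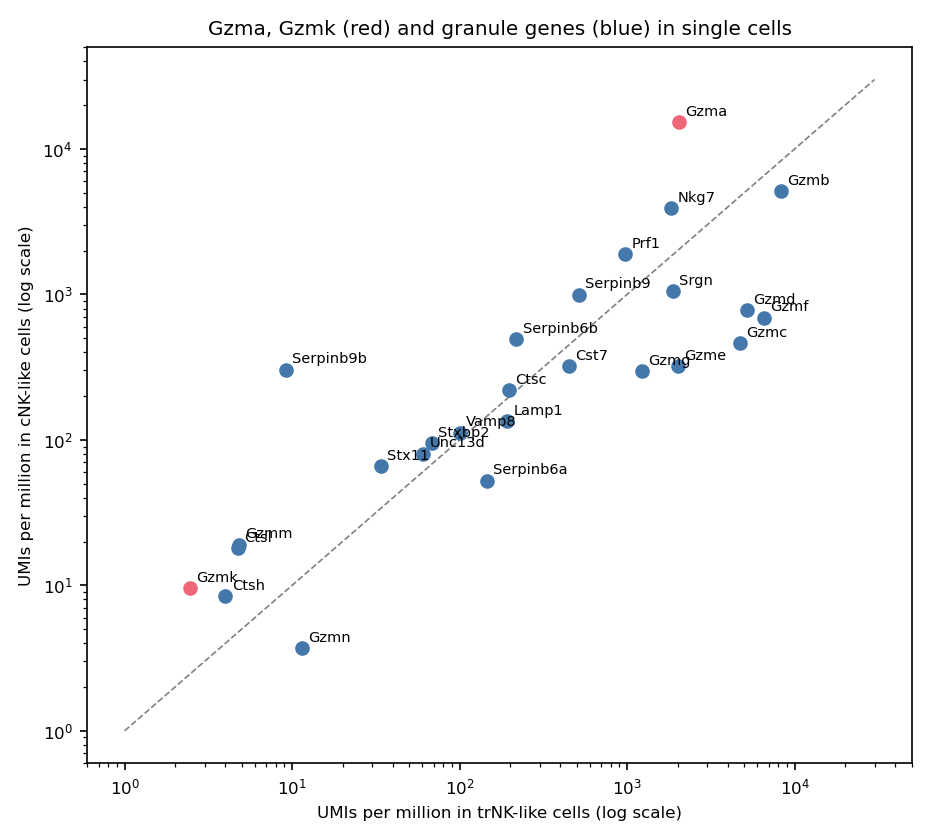
CPM in trNK-like cells (x axis) and cNK-like cells (y axis), both on log scales, for Gzma and Gzmk (red) and 24 other granule genes (blue), with a dashed line where both are equal. Gzma and Gzmk lie above the line, at ratios of 7.49 and 3.90, and Gzmb to Gzmg lie below it, where the cNK-like values of Gzmc to Gzmg are no higher than in B-like cells beyond counting error. The same holds for Gzmk in both classes.

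Across the bulk libraries, the genes whose pattern was most like that of Gzma were Ifitm1, an interferon-induced membrane protein gene, with a Pearson r of 0.81, Adgrg3 at 0.73, Hif1a, a hypoxia-responsive transcription factor gene, at 0.71, Gzme at 0.70 and Ctla4, an inhibitory receptor gene, at 0.69. The measure was taken over 34 libraries and 5678 genes on log2(RPKM + 1) values centred in each experiment. For Gzmk they were Nup35 at 0.59, 2210408F21Rik at 0.56, Tgds at 0.53, Oaz1-ps at 0.53 and 2010315B03Rik at 0.53. The r between Gzma and Gzmk was 0.06. These points share library depth and processing, and the values are descriptions.

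The genes around the pair were mostly at low levels. Within 500 kb, 35 other genes are annotated, of which 5 had a mean above 1 RPKM and 23 were at most 1 RPKM in every library. The highest were Mtrex, an RNA helicase gene, at a mean of 10.7 RPKM, and Snx18, a sorting nexin gene, at 5.54 RPKM. Inside the interval of the pair, Gm9848, 1700084D21Rik, Gm49564 and Esm1 had no library above 1 RPKM. Of 12 tests on neighbours, 1 was called, Snx18 at gd6.5 against virgin, which fell by 1.27 on the log2 scale (adjusted p = 0.0457, edgeR), in a comparison where 6.22% of all genes were called. The Snx18 call ended without either gd6.5 library. Mtrex was tested in 9 comparisons and called in 0, and none of its unadjusted p-values of 0.0306 at gd6.5 against virgin and 0.0103 at gd8.5 against gd6.5 passed the adjustment.

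**Figure D5:**
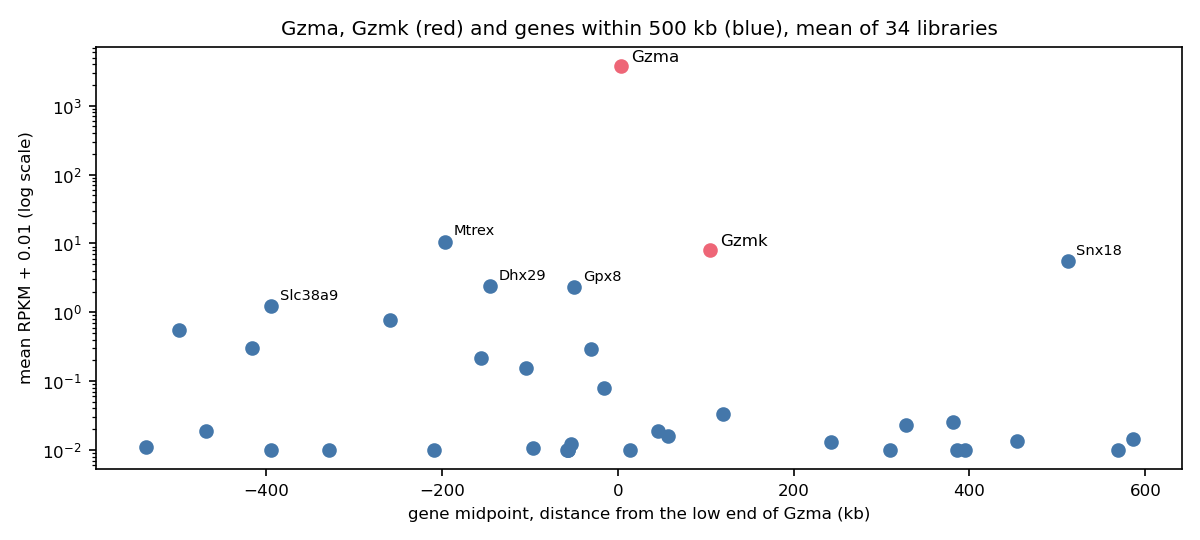
Mean RPKM plus 0.01 over 34 libraries (log scale) against the distance of each gene's midpoint from the low end of Gzma in kb, for Gzma and Gzmk (red) and 35 genes within 500 kb (blue). Gzma stands at 3759 RPKM, Gzmk at 8.09 RPKM and Mtrex at 10.7 RPKM, and most other points lie near the floor of 0.01.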

How the data were processed

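Gzma and Gzmk, the gene lists and the comparisons were chosen with earlier results of these data known. The authors deposited raw read counts per gene, made from SMART-Seq HT and NEBNext Ultra libraries aligned to mm10. The submitters' processing notes name HISAT2 2.1.0 and featureCounts, whereas the methods name RSEM. For single cells (BD Rhapsody) the authors deposited UMI counts per gene and cell. The labels give mm10 for them and the methods GRCm39. ATAC libraries (6) were not analysed here.

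RPKM values were computed from the counts, the total of each library over genes listed in all libraries, and the gene length given for gd8.5 replicate 1. Lengths differed between libraries for 1333 genes, but not for Gzma or Gzmk. Genes above 10 RPKM in both libraries of any group were tested with edgeR 4.0.16 (R 4.3.3), as quasi-likelihood fits with TMM scaling, 1 per experiment, with groups taken from the labels. P-values were adjusted by Benjamini-Hochberg over all genes tested, and a call needed an adjusted p below 0.05 and a fold above 2. Gzma and Gzmk were tested in every experiment. Gzmk passed the filter itself in the gestation and subset experiments only. Common biological variation was 0.254, 0.248, 0.360 and 0.414 in the 4 experiments. Scripts were tested on simulated data.

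Alternatives were DESeq2 1.42.0, limma-voom 3.58.1, RLE size factors, filterByExpr, no filter, the replicate block, only the groups compared and leaving out each library. Scaling by total counts, these alternatives for the granule genes and leaving out the cell with most Gzma UMIs were added after seeing the data. Named genes were Gzma, Gzmk, list genes called, at most 4 list genes not called per comparison, neighbours on chromosome 13 and the 5 genes most like each member.

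Cells were clustered with scanpy 1.11.5 (Leiden, resolution 0.8, 2000 variable genes), with 31 genes left out. A class was named from 3 or more markers. These naming thresholds, and a dendritic cell list that only withheld names, were set with the clusters in view. Scrublet marked 1 doublet, too few to have worked, and no cell was removed. The methods give the limits of 200 and 2500 for UMIs, which is an alternative here.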

Additional observations from a re-analysis of the deposited data

How the results depend on the processing

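Over 32 tests, leaving out 1 library gave 136 values, of which 109 kept their direction and side of the threshold, 1 lost the call, 7 gained it and 19 reversed. The other alternatives set in advance gave 224 values, of which 201 kept both, 2 lost the call, 15 gained it and 6 reversed. Scaling by total counts, chosen after seeing the data, kept both in all 32.

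Without a filter on low counts, calls were gained by Gzmk at gd6.5 against virgin (-1.91), at gd8.5 against gd6.5 (1.48) and in trNK-T against trNK-V (2.51), and by Gzma in trNK-D against trNK-V (1.03), trNK-T against trNK-V (1.52), with IL-21 (2.73) and iSTAT3 (-1.74) in the inhibitor culture and with IL-21 at 24 h (1.08). In the order given, 919, 452 and 2022 of all genes were called there in the Gzmk comparisons, and 471, 2022, 146, 461 and 69 in those of Gzma. With only the groups compared, calls were gained by Gzmk at gd8.5 against gd6.5 (1.501), Gzma in trNK-T against trNK-V (1.33) and Gzma with IL-21 at 24 h (1.08), and the Gzma call at 72 h was lost (1.83), as with filterByExpr (1.75). The share of all genes called with only the groups compared was not obtained, so these gains have no share beside them. DESeq2 called Gzmk at gd6.5 against virgin (-2.02) and Gzma with IL-21 (2.67) and iSTAT3 (-1.75) in the inhibitor culture and at 72 h against 0 h (1.13). It called 462, 162, 443 and 1033 of all genes in these comparisons. limma-voom reversed Gzma at gd8.5 against virgin (0.78), Gzmk with IL-21 (2.31) and with iSTAT3 against no IL-21 (2.85) in the inhibitor culture and Gzmk at 72 h against 0 h (-1.34). The cause was not tested.

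Leaving out each library in turn, the log2 differences of Gzma ran from -0.11 to 1.63 for 72 h against 0 h, from 1.22 to 2.98 for IL-21 at 72 h, from 0.33 to 2.09 for the difference of IL-21 effects, from -0.82 to 3.18 for gd6.5 against virgin, from -0.83 to 0.56 for gd8.5 against gd6.5, from -1.15 to 2.83 for gd8.5 against virgin, from -0.46 to 1.56 for trNK-D against trNK-V, from 0.62 to 1.79 for trNK-T against trNK-V, from -0.27 to 1.80 for trNK-T against trNK-D and from 0.34 to 2.13 for iSTAT3 against no IL-21. Those of Gzmk ran from -4.10 to 1.40 for 72 h against 0 h, from -0.83 to 4.65 for IL-21 at 72 h, from -2.61 to 9.07 for IL-21 in the inhibitor culture, from -0.40 to 5.08 for the difference of IL-21 effects, from -0.52 to 1.91 for iSTAT3 against IL-21, from -1.62 to 9.36 for iSTAT3 against no IL-21, from -2.75 to -0.13 for gd6.5 against virgin, from -1.25 to 1.35 for gd8.5 against virgin, from -9.98 to 11.07 for trNK-D against trNK-V, from 1.40 to 12.42 for trNK-T against trNK-V and from 0.34 to 12.31 for trNK-T against trNK-D. Fitted Gzmk values over 9 or under -9 stand against libraries at 0 and are no bounds.

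The labels give replicate numbers and name no pairs. With 2 libraries a group the correlations below cannot exclude pairing by these numbers. The correlation of same-numbered deviations ran from -0.31 to 0.11 in gestation, -0.01 to 0.39 in the subsets, -0.43 to 0.54 in the inhibitor culture and -0.34 to 0.41 in the time course. With the replicate block Gzma at gd8.5 against virgin was 0.11 and Gzmk with iSTAT3 against no IL-21 was 1.28, both reversed, and no other call or direction of Gzma and Gzmk changed. Of 39 granule gene calls, 10 were lost with the block, 18 with filterByExpr and 24 without 1 library, and 8 held under every alternative run.

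The number of all genes called by edgeR, with the range over alternatives that keep all libraries in the fit, was 280 (2 to 919) for gd6.5 against virgin, 17 (0 to 502) for gd8.5 against virgin, 0 (0 to 452) for gd8.5 against gd6.5, 15 (1 to 471) for trNK-D against trNK-V, 992 (968 to 2022) for trNK-T against trNK-V, 82 (11 to 587) for trNK-T against trNK-D, 12 (0 to 162) for IL-21 in the inhibitor culture, 123 (1 to 461) for iSTAT3 against IL-21, 197 (21 to 653) for iSTAT3 against no IL-21, 0 (0 to 3) for IL-21 at 0 h, 69 (10 to 127) for IL-21 at 6 h, 58 (1 to 146) for IL-21 at 24 h, 283 (241 to 1518) for IL-21 at 72 h, 0 (0 to 6) for 6 h against 0 h, 883 (873 to 2295) for 72 h against 0 h and 149 (137 to 873) for the difference of IL-21 effects. Without 1 library they were 0 to 907 for gd6.5 against virgin, 0 to 597 for gd8.5 against virgin, 0 to 18 for trNK-D against trNK-V, 363 to 922 for trNK-T against trNK-V, 0 to 37 for trNK-T against trNK-D, 2 to 19 for IL-21 in the inhibitor culture, 1 to 30 for iSTAT3 against IL-21, 19 to 41 for iSTAT3 against no IL-21, 0 to 19 for IL-21 at 6 h, 1 to 5 for IL-21 at 24 h, 242 to 1031 for IL-21 at 72 h, 569 to 1618 for 72 h against 0 h and 70 to 791 for the difference of IL-21 effects, and 0 for the others. Under TMM scaling 391 of 883 calls at 72 h against 0 h were higher, against 229 of 934 with total counts. The same splits were 145 of 280 and 219 of 326 for gd6.5 against virgin, and 122 of 197 and 83 of 227 for iSTAT3 against no IL-21. TMM scaling shifted all genes by 0.18, 0.10 and 0.29 on the log2 scale for IL-21, iSTAT3 against IL-21 and iSTAT3 against no IL-21 in the inhibitor culture, by -0.10 for IL-21 at 24 h and by 0.42 for 72 h against 0 h.

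In single cells, limits on UMIs gave Gzma at 1446 CPM in trNK-like, 16245 in cNK-like and 586 in T-like cells, and Gzmk at 4.44 in cNK-like cells. Without an upper limit Gzma was at 2365 and 14464 in trNK-like and cNK-like cells. No cluster met the ILC1 markers, so the planned ILC1-like values were not obtained. With 2 libraries a group, differences of Gzmk had wider intervals than those of Gzma in the subset, inhibitor and time course experiments, and narrower ones in the gestation experiment.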
